A study of Mus musculus with 8 samples.

Results

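The tachykinin system was examined in the prefrontal cortex of mice labelled Mll1 knockout and of wild-type mice, through 4 genes: Tac1, Tac2, Tacr1 and Tacr3. They are 4 of 23983 genes tested and were found by exact gene symbol in the authors' comparison table, with 1 transcript cluster each (a set of probes along a gene). Tac1 was picked because its signal was higher on the Mll1 knockout arrays, so its difference is given as a description with no test. The others were taken as relatives of Tac1. The series held 8 arrays of total RNA, 1 per mouse, from 4 male mice labelled Mll1 knockout and 4 male wild-type mice. All were 12 weeks old, housed singly for a week and sampled at rest from tissue labelled as prefrontal cortex and, in the source field, as cingulate cortex. Mll1 is the older name of Kmt2a, a histone methyltransferase that acts on lysine 4 of H3 at active promoters. The series' title describes the methyltransferase as neuronal, but the labels name neither a Cre line nor the deleted part of the gene.

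Tachykinins are short peptides cut from larger precursors and released from dense-core vesicles. Tac1 encodes the precursor of substance P and neurokinin A, Tac2 that of neurokinin B. They act on G protein-coupled receptors that signal mainly through Gq, phospholipase C and calcium release. Tacr1 encodes the NK1 receptor, preferred by substance P, and Tacr3 the NK3 receptor, preferred by neurokinin B. In mouse cortex Tac1 is known from subsets of GABAergic neurons and Tac2 mainly from interneurons of the Vip class, while Tacr1 marks a sparse class of interneurons that contain Nos1.

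The sequences before the starts of the precursor genes are shown because Mll1 acts at promoters and carries a CXXC domain that binds unmethylated CpG, and because Tac1 and Tac2 gave different values. They are RefSeq sequences of build GRCm38.p6, each the 250 bases before the annotated start on the plus strand, 5′ to 3′. Tac1 lies at chr6:7554811-7555060 and Tac2 at chr10:127724228-127724477, and capitals mark every CpG.
Tac1: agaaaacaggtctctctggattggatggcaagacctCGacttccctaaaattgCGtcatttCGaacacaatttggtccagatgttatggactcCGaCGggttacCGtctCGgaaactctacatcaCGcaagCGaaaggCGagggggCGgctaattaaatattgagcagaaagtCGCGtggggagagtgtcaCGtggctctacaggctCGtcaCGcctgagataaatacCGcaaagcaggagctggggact
Tac2: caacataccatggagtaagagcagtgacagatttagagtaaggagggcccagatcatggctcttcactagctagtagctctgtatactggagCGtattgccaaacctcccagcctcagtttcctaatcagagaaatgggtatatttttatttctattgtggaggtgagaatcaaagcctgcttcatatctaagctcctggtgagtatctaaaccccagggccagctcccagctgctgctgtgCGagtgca
The Tac1 window held 17 CpGs and the Tac2 window 2, against a median of 6 over the 32851 windows of the RefSeq table. Fewer CpGs than in Tac1 were found in 76.5% of those windows, and more than in Tac2 in 71.0%. The windows of Tacr1 and Tacr3 each held 7 CpGs. Neither DNA methylation nor Mll1 binding was measured on these arrays. Whether promoter CpG has a part in the different values of Tac1 and Tac2 was not tested.

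Short motifs were searched on both strands of the same windows. TGACG, a partial cAMP response element, occurred at 2 places in the Tac1 window, beginning 197 and 43 bases before the start, and nowhere in the Tac2 window. It also occurred once in each receptor window, and 17.8% of all windows held it. The E-box CACGTG lay 61 bases before the Tac1 start, overlapping no TGACG, and was held by 6.02% of windows. None of the 4 windows held the full element TGACGTCA (1.55% of windows). TATAAA was found in the Tacr3 window, 29 bases before the start, and in 12.4% of all windows. A match describes the letters in a window and does not show a site in use.

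The values are the authors' signals on a log2 scale, where 1 unit is a doubling. The median of an array lay between 7.99 and 8.0 on the Mll1 knockout arrays and between 8.04 and 8.08 on the wild-type arrays. The array medians were thus split by labelled genotype. The first principal component over all genes held 42.7% of the variance and set the labelled genotypes apart. Wild-type replicate 1 was farthest out on it and wild-type replicate 4 on the second. Kmt2a itself was higher, not lower, in the group labelled Mll1 knockout. It stood at 10.42, 10.38, 10.29 and 10.30 on the Mll1 knockout arrays, against 9.94, 10.13, 10.12 and 10.06 on the wild-type arrays, a difference of 0.29 ± 0.06 log2 (SE, limma, adjusted p = 0.0142). Without wild-type replicates 1 and 4 it was 0.222 (limma, adjusted p = 0.0601). The cluster may lie outside the deleted part, so this value does not check the labels, and every direction below rests on them. The labels do not say whether the mice came from separate litters. The limma p-values set a difference against the spread among these arrays within each labelled genotype.

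Tac1 was the member with the largest difference, which its choice for this rise made likely. Its signal was 10.71, 11.01, 10.53 and 10.96 on the Mll1 knockout arrays, against 9.74, 10.12, 9.98 and 10.28 on the wild-type arrays. The groups did not overlap: the lowest knockout array lay 0.25 log2 above the highest wild-type array. Over all genes tested, 9.47% were also higher without overlap, and from this share nothing is read, since Tac1 was chosen on this contrast. Tac1 averaged 10.80 ± 0.22 in Mll1 knockout cortex and 10.03 ± 0.23 in wild-type cortex (SD, n = 4 each), a difference of 0.77 ± 0.12 log2 (SE), or 1.71-fold. In bulk tissue more Tac1 cells and more Tac1 RNA per cell cannot be told apart.

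By size this was the 10th largest rise of 23983 genes. Next above it came the mitochondrial tRNA gene mt-Ts1 at 0.78 ± 0.11 log2, and next below it AW551984 at 0.76 ± 0.14 (SE). The ranks around Tac1 are therefore closer together than the standard errors of the genes that hold them. Within each group the Tac1 arrays were spread over 0.48 log2 (Mll1 knockout) and 0.54 log2 (wild-type). The lowest Tac1 value belonged to wild-type replicate 1, and without that array the difference was 0.676 log2. The smallest of the 16 differences between a knockout and a wild-type array was 0.25 log2 and the largest 1.27.

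**Figure D1:**
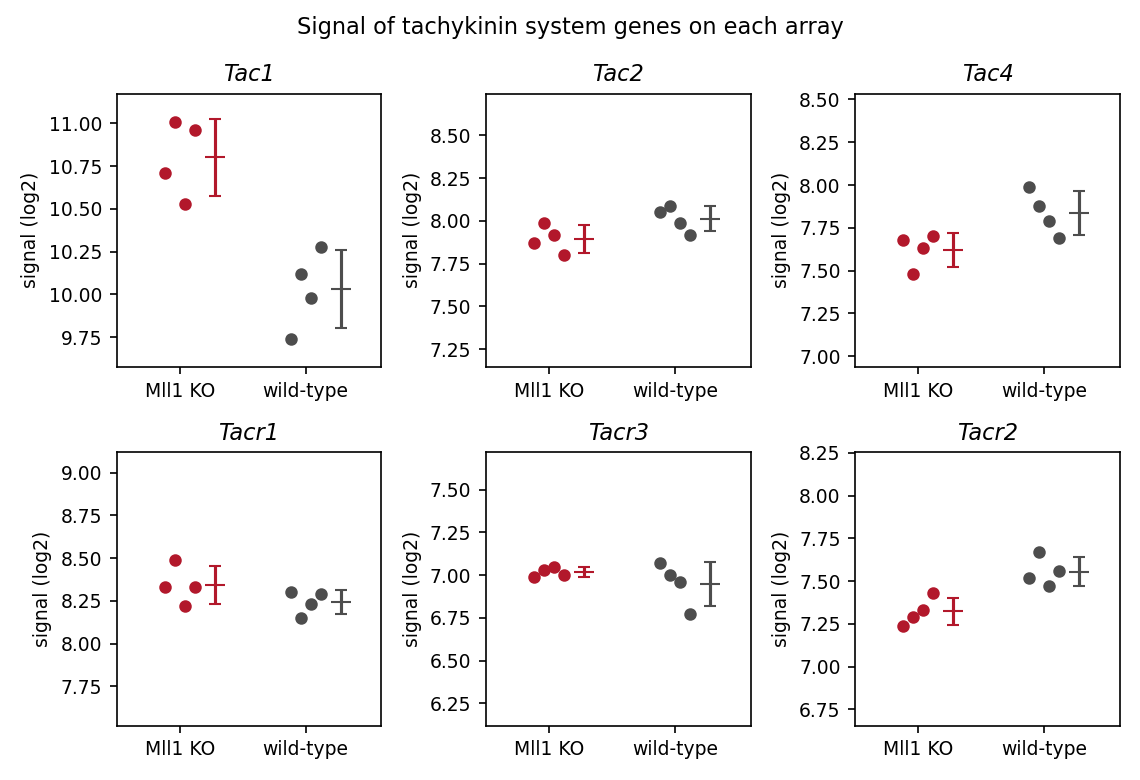
Signal (log2, vertical axis) of the tachykinin precursor genes (upper row) and receptor genes (lower row) on each array, with Mll1 knockout in red at the left and wild-type in grey at the right. Points are arrays, bars show the mean ± SD of 4 arrays, and every panel spans the same log2 range; Tac1 sits at 10.53 to 11.01 in Mll1 knockout and 9.74 to 10.28 in wild-type, while the groups of Tac2, Tacr1 and Tacr3 overlap.

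Tac2 was slightly dimmer in Mll1 knockout cortex, and the difference did not pass the test. The knockout arrays gave 7.87, 7.99, 7.92 and 7.80, against 8.05, 8.09, 7.99 and 7.92 on the wild-type arrays. Knockout replicates 2 and 3 lay inside the wild-type range and replicates 1 and 4 below it. The means were 7.90 ± 0.08 and 8.01 ± 0.07 (SD, n = 4 each), a difference of -0.12 ± 0.06 log2 (SE, limma, adjusted p = 0.171; exact two-sided permutation p = 0.143). Its 95% interval ran from -0.242 to 0.007, or a knockout to wild-type ratio of 0.846 to 1.0. A rise of the size seen for Tac1 lies outside it.

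Tac4, the third precursor gene, which encodes hemokinin 1, was named as a relative and is not one of the 4 members. It gave 7.68, 7.48, 7.63 and 7.70 on the Mll1 knockout arrays, against 7.99, 7.88, 7.79 and 7.69 on the wild-type arrays. Knockout replicate 4 lay above the lowest wild-type array, so the groups overlapped. The difference was -0.22 ± 0.07 log2 (SE, limma, adjusted p = 0.0701; exact two-sided permutation p = 0.0571). Without wild-type replicate 4 it was -0.264 (limma, adjusted p = 0.0338), and after quantile normalization -0.139 (limma, adjusted p = 0.266). None of the precursor genes other than Tac1 gave a positive difference.

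Neither receptor member passed the test. Tacr1 stood at 8.33, 8.49, 8.22 and 8.33 on the Mll1 knockout arrays, against 8.30, 8.15, 8.23 and 8.29 on the wild-type arrays. Knockout replicates 1, 2 and 4 lay above all wild-type arrays and knockout replicate 3 inside their range. The difference was 0.10 ± 0.06 log2 (SE, limma, adjusted p = 0.274; exact two-sided permutation p = 0.171), with a 95% interval of -0.037 to 0.237. That interval reaches from slightly lower to 1.18-fold higher in the Mll1 knockout group.

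Tacr3 lay near the lower quartile of its arrays. It gave 6.99, 7.03, 7.05 and 7.0 on the Mll1 knockout arrays, against 7.07, 7.0, 6.96 and 6.77 on the wild-type arrays. The lower quartile of all clusters lay at 6.80 to 6.83 on the knockout arrays and 6.89 to 6.94 on the wild-type arrays, so only wild-type replicate 4 fell below its own. Whether these signals were above background was not tested. The knockout arrays were spread over 0.06 log2 and the wild-type arrays over 0.30, and the groups overlapped. The difference was 0.07 ± 0.06 log2 (SE, limma, adjusted p = 0.459; exact two-sided permutation p = 0.457), with a 95% interval of -0.069 to 0.204. Without wild-type replicate 4 it was 0.008.

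Among Tac2, Tacr1 and Tacr3, then, 0 of 3 passed by limma's adjusted p, 0 of 3 had an unadjusted p under 0.05, and 0 of 3 passed in the unmoderated test. Over all genes 10.8% passed, 5.15% higher and 5.69% lower. A p that misses the threshold does not show equal levels. The smallest two-sided p of the permutation test with 4 against 4 arrays is 0.0286.

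Tacr2, which encodes the NK2 receptor preferred by neurokinin A, is the receptor gene outside the 4 members. It was at 7.24, 7.29, 7.33 and 7.43 on the Mll1 knockout arrays, against 7.52, 7.67, 7.47 and 7.56 on the wild-type arrays. The groups were 0.04 log2 apart, and 10.1% of all genes were lower without overlap. Tacr2 fell by 0.23 ± 0.06 log2 (SE, limma, adjusted p = 0.0327; exact two-sided permutation p = 0.0286). The call ended in 11 of 18 alternatives, among them quantile normalization, at -0.146 (limma, adjusted p = 0.181), and leaving out any 1 of knockout replicates 1, 2 or 3 or wild-type replicates 1 or 2 (limma, adjusted p 0.0587 to 0.0824).

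Signal level moved with the genotype label across all genes. All genes were ranked by their mean over the 8 arrays and cut into 10 equal classes. In the class that holds Tac1, with means of 9.70 to 10.47, the median gene differed by 0.068 log2; 268 of the 2398 genes there rose and 54 fell. The Tac1 difference, for which the gene was picked, was far from that median. The class from 7.43 to 7.85 holds Tacr2 and Tac4 and had a median of -0.102, and the class from 7.85 to 8.25 holds Tac2 and had a median of -0.075. The differences of Tac2 (-0.12), Tac4 (-0.22) and Tacr2 (-0.23) had the sign of those medians. Tacr1 and Tacr3 had positive differences in classes with medians of -0.015 and -0.119.

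Quantile normalization, which gives all arrays 1 common distribution, brought the class medians to between -0.038 and 0.013. Tac1 kept 92.4% of its difference there, at 0.714 log2, and its arrays ran from 10.50 to 10.97 in Mll1 knockout and from 9.81 to 10.29 in wild-type. Tac2 kept 44.7%, at -0.052 (limma, adjusted p = 0.626). Tacr1 moved to 0.134 (limma, adjusted p = 0.23) and Tacr3 to 0.163 (limma, adjusted p = 0.149). After this step 0 of Tac2, Tacr1 and Tacr3 passed, where 2.86% of all genes were called higher and 1.58% lower. The Tacr3 groups no longer overlapped, at 7.03 to 7.11 in Mll1 knockout and 6.72 to 6.99 in wild-type; 8.33% of all genes were then higher without overlap.

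**Figure D2:**
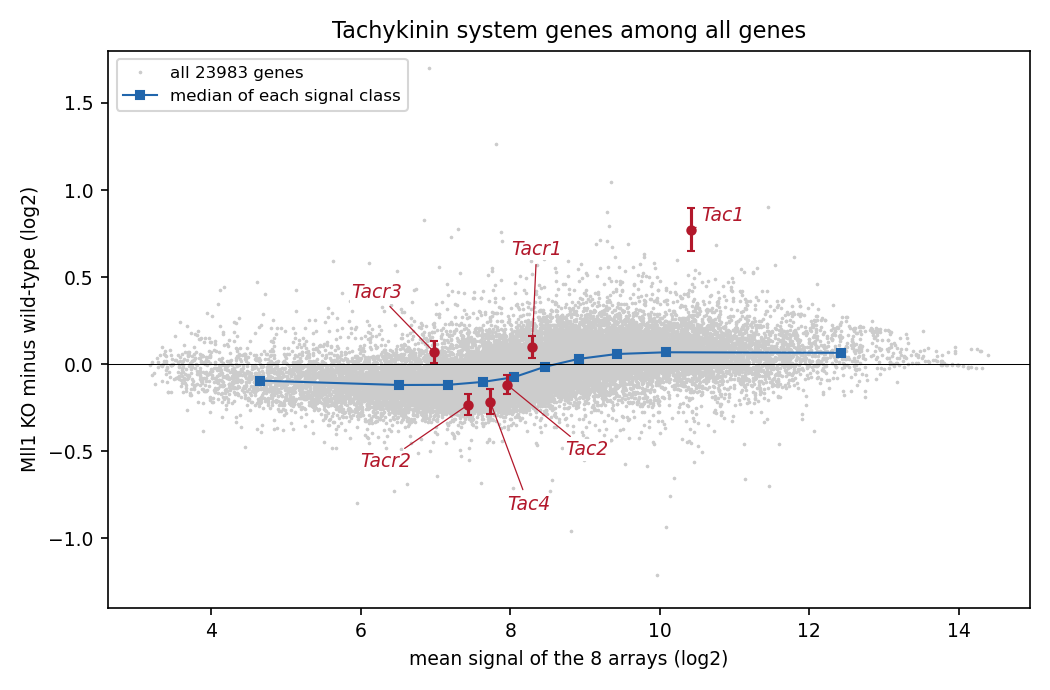
Difference between Mll1 knockout and wild-type (log2, vertical axis) against mean signal of the 8 arrays (log2, horizontal axis) for all 23983 genes (grey), with the tachykinin system genes in red (bars are ± SE) and the median of each of 10 signal classes in blue. Tac1 lies at 0.77 where its class median is 0.068, and the other family genes lie between -0.23 and 0.10.

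Each member was then set beside the nearest measured protein-coding gene on either side, in the gene order of GRCm38.p6; these neighbours were added after the values had been seen. Sdhaf3, an assembly factor of respiratory complex II, lies before Tac1 and differed by 0.01 ± 0.05 log2 (SE, limma, adjusted p = 0.93). Asns, asparagine synthetase, lies after it and differed by 0.07 ± 0.05 (limma, adjusted p = 0.283). Sdhaf3 stood at 9.28 to 9.41 on the Mll1 knockout arrays and 9.27 to 9.41 on the wild-type arrays. Neither gene next to Tac1 passed the test. The neighbours of Tac2 (Myo1a and Zbtb39), Tacr1 (Eva1a and Pole4) and Tacr3 (Cxxc4 and Cenpe) did not pass either, with differences of -0.09 to 0.02.

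The genes whose signal followed each member most closely were found by the root mean square difference over the 8 arrays, after each gene was centred on its own mean. The search covered 10471 named genes at or above the median level. Closest to Tac1 was Nov, a matricellular protein gene, at 0.159 log2, where the median gene was at 0.417. Nov ran from 11.80 to 12.00 in Mll1 knockout and from 10.88 to 11.09 in wild-type. Pcdh20 (0.172), a protocadherin, Rgs17 (0.175), a regulator of G protein signalling, Bex1 (0.178), an adaptor, and Pnmal2 (0.180) came next. All 5 were higher in the Mll1 knockout group by 0.53 to 0.90 log2, so this likeness mostly restates the genotype difference. On wild-type replicate 1, Tac1, Nov, Rgs17, Bex1 and Pnmal2 each had their lowest value, and Pcdh20 did not. That array was also the farthest out on the first principal component over all genes. The share of all higher genes with their lowest value there is not given here, so nothing particular to these genes is read from it.

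**Figure D3:**
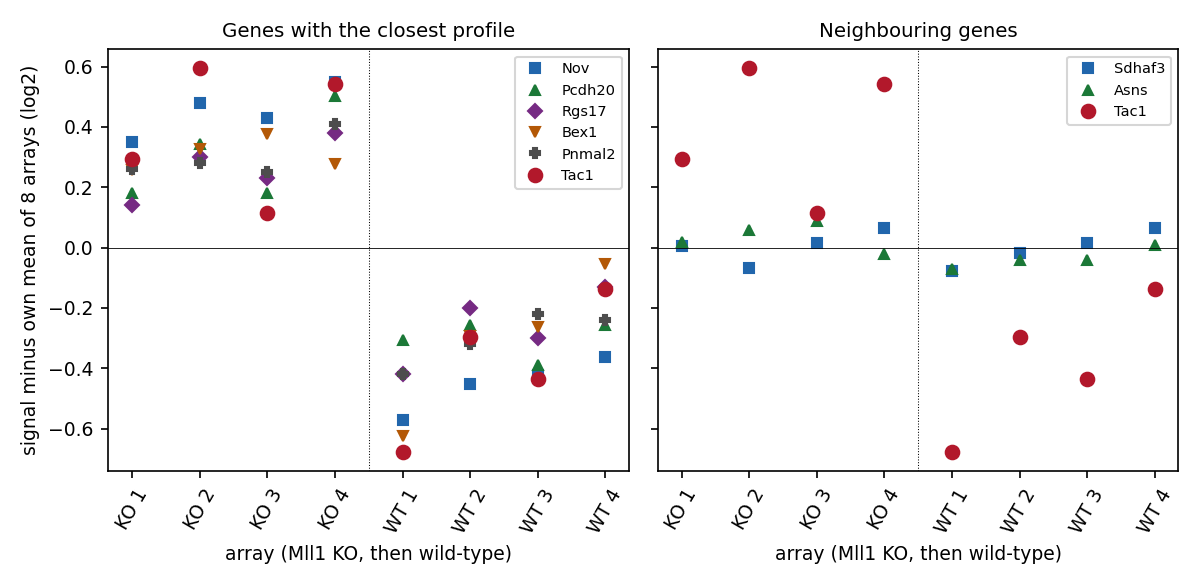
Signal minus the gene's own mean of 8 arrays (log2, vertical axis) for each array (horizontal axis, Mll1 knockout left of the dotted line and wild-type right of it), for Tac1 (red) with the 5 genes of closest profile (left panel) and with its neighbours Sdhaf3 and Asns (right panel). The 5 genes are separated by genotype as Tac1 is, and the neighbours stay near 0 on all arrays.

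The profiles of the other members were close to those of genes with small differences. Closest to Tac2 were Asph (0.030 log2), an aspartate hydroxylase, Kank1 (0.040) and the nicotinic receptor subunit gene Chrna7 (0.041). Closest to Tacr1 were Plppr1 (0.040), Lrrc16a (0.041) and the calcium channel gene Cacna1c (0.045). Closest to Tacr3 were Klhl34 (0.019), the centromere protein gene Cenpt (0.025) and the AMPA receptor auxiliary gene Shisa9 (0.027). The median gene of the search was at 0.125 for Tac2, 0.123 for Tacr1 and 0.112 for Tacr3. Between members the distances ran from 0.110 (Tac2 and Tacr3) to 0.497 (Tac1 and Tac2). The smallest of these was thus near that of the median gene.

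Signalling from the receptors was described by a list of 22 genes (Gq subunits, phospholipases, calcium release channels, protein kinases C, arrestins, receptor kinases and RGS proteins), of which 21 were measured. Of these 2 rose, 2 fell and 17 did not pass, with a median difference of 0.005 log2, against -0.032 over all genes. The shares were 9.52% and 9.52%, where 5.15% of all genes rose and 5.69% fell. The mean level of the list was 9.94 to 9.96 on the Mll1 knockout arrays and 9.92 to 10.01 on the wild-type arrays. In the signal class with means of 9.70 to 10.47, 268 of 2398 genes rose and 54 fell. After quantile normalization 1 rose and 2 fell, where 2.86% of all genes rose and 1.58% fell. Leaving out any 1 of Mll1 knockout replicates 1, 2 or 3 or wild-type replicates 1 or 2 also left 1 rise. Rises over all genes then numbered 398 to 788, against 1236 with all arrays. Rgs2 and Rgs4, which both speed the shutting off of Gq, differed in opposite directions. Rgs2 was at 10.21, 10.29, 10.30 and 10.40 on the Mll1 knockout arrays, against 9.62, 9.95, 9.91 and 10.01 on the wild-type arrays. It rose by 0.43 ± 0.08 log2 (SE, limma, adjusted p = 0.011), and wild-type replicate 1 was again the lowest; the unmoderated test did not pass (adjusted p = 0.0648). Rgs4 fell by 0.31 ± 0.05 (limma, adjusted p = 0.00773), to between 11.24 and 11.38, against 11.49 to 11.66 in wild-type.

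Plcb4, a phospholipase C activated by Gq, fell as well. It stood at 9.75, 9.71, 9.65 and 9.59 on the Mll1 knockout arrays, against 9.94, 10.08, 10.14 and 9.98 on the wild-type arrays, a difference of -0.36 ± 0.06 log2 (SE, limma, adjusted p = 0.00567). The receptor kinase gene Adrbk2 was higher by 0.20 ± 0.05 (limma, adjusted p = 0.0343), a call that ended in 11 of 18 alternatives, among them quantile normalization (limma, adjusted p = 0.0961) and leaving out any 1 of replicates 1, 2 or 3 of either group (0.0557 to 0.0951). The Gq subunit genes Gnaq (0.01 ± 0.05) and Gna11 (0.03 ± 0.06) did not pass. Nor did Prkcb and Arrb1, the brightest of the list, at -0.10 ± 0.04 and 0.04 ± 0.04.

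Precursor processing, vesicle release and peptide breakdown were described by 25 genes, of which 24 were measured. Of these 4 rose, 1 fell and 19 did not pass, and the median difference was 0.066 log2, against -0.032 over all genes. That is 16.7% rising and 4.17% falling, where 5.15% and 5.69% of all genes did. The mean level of the list was 10.17 to 10.21 on the Mll1 knockout arrays and 10.08 to 10.17 on the wild-type arrays. In the signal class with means of 9.70 to 10.47, 268 of 2398 genes rose and 54 fell. The share over all genes is therefore not matched to the level of this list. After quantile normalization 2 rose and 2 fell, where 2.86% and 1.58% of all genes did, and the median was 0.014. Leaving out Mll1 knockout replicate 1 or 3 or wild-type replicate 1 also left 2 rises. Rises over all genes then numbered 398 to 667, against 1236 with all arrays. Scg2, a granin of dense-core vesicles, was at 9.65, 9.69, 9.61 and 9.73 on the Mll1 knockout arrays, against 9.31, 9.14, 9.23 and 9.41 on the wild-type arrays. It rose by 0.40 ± 0.06 log2 (SE, limma, adjusted p = 0.00458). Ece2, an endothelin-converting enzyme that cuts neuropeptides, rose by 0.40 ± 0.05 (limma, adjusted p = 0.00169) in its brightest cluster and by 0.194 (limma, adjusted p = 0.0402) in the mean of its clusters. Cadps2, which primes dense-core vesicles for release, was the single fall, at -0.44 ± 0.05 (limma, adjusted p = 0.00101).

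The convertases that cut peptide precursors differed in sign. Pcsk1 was at 10.58, 10.40, 10.50 and 10.38 on the Mll1 knockout arrays, against 10.10, 10.25, 10.25 and 10.22 on the wild-type arrays. It rose by 0.26 ± 0.06 log2 (SE, limma, adjusted p = 0.0234), and the call ended in 8 of 18 alternatives, among them quantile normalization (limma, adjusted p = 0.0684) and leaving out Mll1 knockout replicate 1 or 3 or wild-type replicate 1 (0.0557 to 0.0688). Pcsk2 was at -0.16 ± 0.05 (limma, adjusted p = 0.0513), and after quantile normalization at -0.232 (limma, adjusted p = 0.0332). Ptprn2, a protein of vesicle membranes, rose by 0.20 ± 0.05 (limma, adjusted p = 0.0395), a call that ended in 12 of 18 alternatives, among them quantile normalization (limma, adjusted p = 0.19) and leaving out any 1 array other than wild-type replicate 3 (0.0564 to 0.0834). The carboxypeptidase gene Cpe, among the brightest of the list, was at 0.10 ± 0.07, and Mme, neprilysin, which breaks down substance P, at 0.05 ± 0.09; neither passed.

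**Figure D4:**
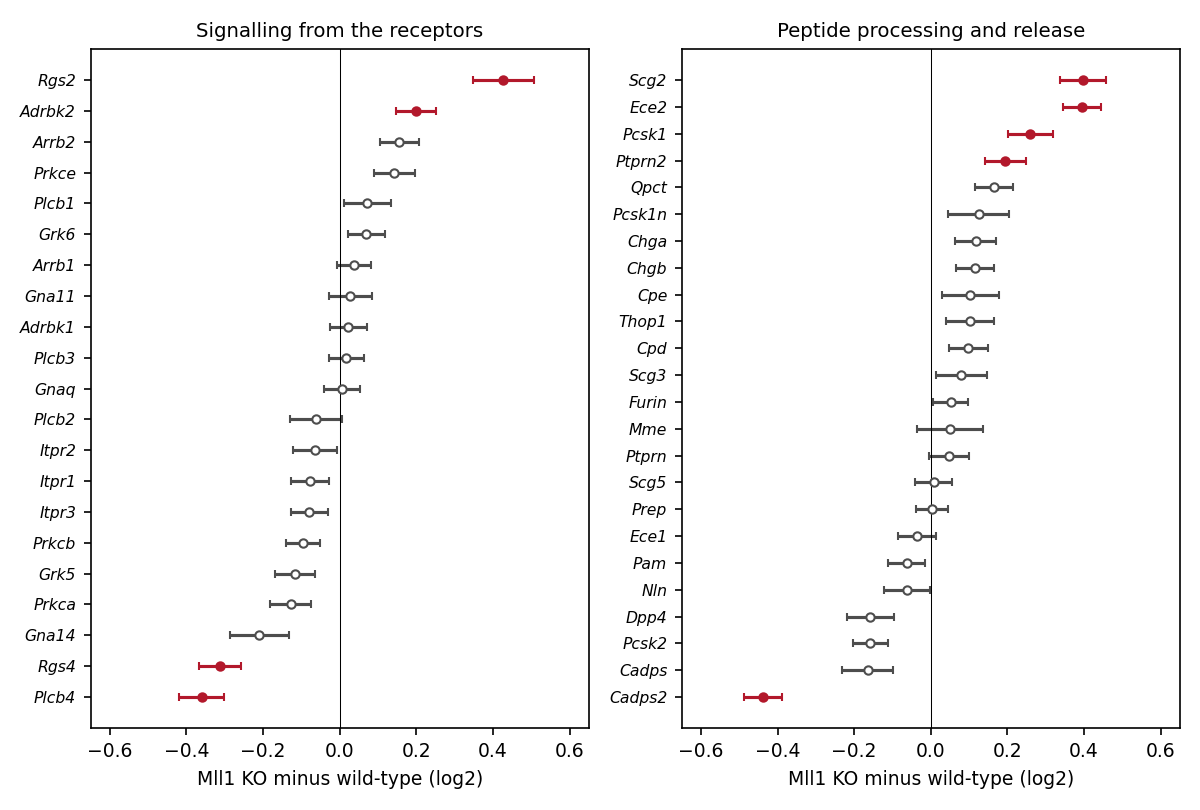
Difference between Mll1 knockout and wild-type (log2, horizontal axis; bars are ± SE from limma) for 21 genes of signalling from the receptors (left) and 24 genes of peptide processing, release and breakdown (right). Filled red points passed the adjusted p threshold of 0.05; Rgs2 and Scg2 lead the rises, Plcb4 and Cadps2 the falls.

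Markers of cells that could carry tachykinins, and of nearby regions, were read beside these results. Of 17 interneuron class markers 1 rose and 2 fell, or 5.88% and 11.8%, where 5.15% and 5.69% of all genes did. Their mean level was 9.39 to 9.41 on the Mll1 knockout arrays and 9.41 to 9.47 on the wild-type arrays. Nos1, neuronal nitric oxide synthase, rose. It stood at 9.53, 9.65, 9.59 and 10.04 on the Mll1 knockout arrays, against 9.03, 9.03, 8.96 and 9.10 on the wild-type arrays, a difference of 0.67 ± 0.09 log2 (SE, limma, adjusted p = 0.00301). Chodl, a marker of the sparse Nos1 neurons that carry Tacr1, was at -0.15 ± 0.07 and did not pass; it was chosen after its values were seen. It lay below the lower quartile of the array on 4 of 4 Mll1 knockout and 3 of 4 wild-type arrays, and whether it was above background was not tested. Reln fell by 0.42 ± 0.06 (limma, adjusted p = 0.00253) and Gad1, which makes GABA, by 0.20 ± 0.05 (limma, adjusted p = 0.0349). The Gad1 call ended in 10 of 18 alternatives, among them leaving out any 1 Mll1 knockout array or wild-type replicate 1 or 2 (limma, adjusted p 0.0548 to 0.085). With those arrays left out singly the list had 1 fall. Falls over all genes then numbered 313 to 960, against 1364 with all arrays. Sst (0.21 ± 0.08), Npy (0.04 ± 0.08) and Cck (0.01 ± 0.07) did not pass. Sst did pass as a rise in 3 of 18 alternatives. These were median centring (0.274, limma, adjusted p = 0.0393), the replicate number as a block (0.0429) and leaving out Mll1 knockout replicate 4 (0.0494). The number of rises in the list changed in 7 of 18 alternatives, and was 3 under median centring, where rises over all genes numbered 2845.

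Tac1 is also strong in striatal projection neurons that carry Drd1. Of 10 striatal markers 0 rose by limma's adjusted p (1 had an unadjusted p under 0.05 and a positive difference) and 2 fell, Adora2a by 0.41 ± 0.07 log2 (SE, limma, adjusted p = 0.00662) and Isl1 by 0.44 ± 0.07 (limma, adjusted p = 0.00536). Their mean level was 9.91 ± 0.08 on the Mll1 knockout arrays and 9.99 ± 0.07 on the wild-type arrays (SD, n = 4 each). The lowest array was at 9.82 in Mll1 knockout and 9.89 in wild-type, and the groups overlapped. Drd1 (0.10 ± 0.06), Penk (0.22 ± 0.08) and Rgs9 (-0.11 ± 0.08) did not pass. Penk did pass under median centring (0.276, limma, adjusted p = 0.0495) and without wild-type replicate 4 (0.281, limma, adjusted p = 0.0388). Drd1, Penk and Rgs9, like Tac1, were lowest in their group on Mll1 knockout replicate 3 and wild-type replicate 1. Adora2a and Isl1 were so on Mll1 knockout replicate 3 only. The share of all genes with their lowest values on those arrays is not given here, so nothing particular to these genes is read from it. The cause was not tested. The median striatal marker differed by -0.055 log2, against -0.032 over all genes. For comparison with the counts, 5.15% of all genes rose and 5.69% fell. With quantile normalization 0 of the 10 markers rose and 3 fell, where 2.86% and 1.58% of all genes did, and their median was -0.115.

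Of 8 markers of habenula and thalamus 1 rose, Slc17a6, a vesicular glutamate transporter (0.34 ± 0.06 log2, SE, limma, adjusted p = 0.00848), and Chrnb4, Tcf7l2 and Prkcd (-0.23 to 0.06) did not pass. In this list 12.5% rose and 0.0% fell, where 5.15% and 5.69% of all genes did, and 6 of the 8 differences were negative. That list's mean level was 8.03 to 8.07 in Mll1 knockout and 8.06 to 8.14 in wild-type. Of 10 cortical projection neuron markers 7 fell (70.0%, against 5.69% of all genes) and 10 had negative differences, with mean levels of 9.71 to 9.79 on the Mll1 knockout arrays and 9.99 to 10.14 on the wild-type arrays. Foxp2 (-0.48 ± 0.06), Tbr1, Fezf2 and Bcl11b were among the falls, and the bright marker Slc17a7 (-0.03 ± 0.05) was not. The count was 8 after quantile normalization, where 1.58% of all genes fell. It was 4 without Mll1 knockout replicate 1 or wild-type replicate 3, under median centring and in the unmoderated test, and 3 without Mll1 knockout replicate 2. Falls over all genes numbered 498 and 1287 without those first 2 arrays, 482 under median centring, 384 in the unmoderated test and 362 without Mll1 knockout replicate 2. The Bcl11b call ended in 8 of 18 alternatives, among them leaving out any 1 of Mll1 knockout replicates 1, 2 or 3 or wild-type replicates 2 or 3 (limma, adjusted p 0.0564 to 0.0973) and the Fezf2 call in 2, without Mll1 knockout replicate 2 (limma, adjusted p = 0.058) and in the unmoderated test (adjusted p = 0.076). These arrays give no signal of 0, and the part of these markers in the tachykinin values was not tested.

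Promoter CpG and the genotype difference were set side by side over all genes with a RefSeq window. The 4446 genes with 10 to 19 CpGs, the class of Tac1, differed by 0.025 log2 at the median; 6.93% of them rose and 2.77% fell. The 4025 genes with up to 3 CpGs, the class of Tac2 and Tac4, had a median of -0.118; 1.52% rose and 11.0% fell. The 3077 genes with 4 to 9 CpGs, the class of Tacr1, Tacr2 and Tacr3, had a median of -0.055, with 4.71% rising and 6.82% falling. In the 3852 genes with 20 or more CpGs the median was 0.03, with 5.5% rising and 2.23% falling, so the share of rises was not highest in the class with most CpGs. After quantile normalization the medians of the Tac1 and Tac2 classes were 0.016 and -0.043, with 3.85% and 1.24% rising and 1.48% and 1.34% falling. The Tac1 value of 0.77, for which the gene was picked, lay far above its class median, and the Tac2 value of -0.12 lay at its class median. The CpG classes were not matched for signal level. The signal class from 6.12 to 6.91 had a median of -0.12 as well, with 13 rises and 241 falls among 2398 genes. Promoter CpG and signal level were therefore not told apart here.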

How the data were processed

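The authors deposited log2 signals of 35556 transcript clusters on 8 arrays. Affymetrix Expression Console, RMA and Transcriptome Analysis Console 3.0 are named, without role or order, per the submitters' processing notes. The sources used here name no array model, genome build or annotation. Gene names came from the authors' comparison table of 28944 clusters, which also holds a signed linear fold and p-values per the file headers; these were not used as results. Clusters with 1 gene (25400) were reduced to the brightest per symbol, giving 23983 genes. Differences are Mll1 knockout minus wild-type from limma 3.58.1 in R 4.3.3 (lmFit and eBayes, no covariate, no filter), with Benjamini-Hochberg adjustment over all genes and a threshold of 0.05. The script was tested on simulated data. The number of arrays limits the precision.

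The members, gene lists, tests and alternatives were chosen with earlier results of these data known. Named genes were the family, Kmt2a, up to 5 passing and the 2 brightest genes per list (4 brightest for markers), the closest profiles and the ranks next to Tac1; Gnaq, Gna11, Mme and Chodl were added after their values were seen. A few list genes enter the counts and are not reported here individually.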

Additional observations from a re-analysis of the deposited data

Results flagged for a closer look

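Among the 70 genes examined, 140 groups of 4 arrays were searched for an array far from the other 3, and 10 were found; chance alone gives about 1 in 20. None concerned Tac1, Tac2, Tacr1, Tacr3, Tac4, Tacr2 or Kmt2a. Sst stood out in both groups, at 11.97 on Mll1 knockout replicate 4 (others 12.20 to 12.24) and 11.74 on wild-type replicate 4 (others 12.01 to 12.03). In the Mll1 knockout group, replicate 2 stood out for Plppr1 at 10.18 (others 9.90 to 9.93), Cacna1c at 9.86 (others 9.71 to 9.73) and Klhl34 at 9.03 (others 9.02). The search set the gap against the range of the group, so Klhl34 was found although its values nearly coincide. The Plppr1 and Cacna1c profiles are among the closest to that of Tacr1, whose highest array is also replicate 2. Both genes were picked for that likeness, so nothing is read from the shared array. Replicate 1 stood out for Chrnb4 at 8.23 and for Chodl at 6.53 (others 6.73 to 6.76), and replicate 4 for Prkcd at 8.46. In wild-type, replicate 1 was low for Prkcb at 12.66 and replicate 3 high for Eva1a at 8.94.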

How the results depend on the processing

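The directions of Tac1, Tac2, Tacr1, Tacr3, Tac4, Tacr2 and Kmt2a held under every alternative run: quantile normalization, cyclic loess with 3 iterations, median centring, an unmoderated test, robust eBayes with a trend, array weights, the mean of all clusters, the replicate number as a block, each array left out, and wild-type replicates 1 and 4 left out together. Leaving out dim genes gave no value for Tacr3. Tac1 ranged from 0.676 to 0.863 log2, and with arrays left out singly these were also its limits. Tac2 (-0.149 to -0.052), Tacr1 (0.051 to 0.161) and Tacr3 (0.008 to 0.179) passed under none, with lowest adjusted p of 0.0881, 0.104 and 0.0997 (limma). Kmt2a did not pass without wild-type replicates 1 and 4, at 0.222.

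Counts over all genes moved more. Rises and falls numbered 1236 and 1364 as deposited, 686 and 379 after quantile normalization, 746 and 437 after cyclic loess, 2845 and 482 after median centring, and 552 and 384 in the unmoderated test. Same-numbered arrays share only a number: their deviations from the group means correlated at -0.008 to 0.024, and no array correlated best with its own number. With that number as a block there were 799 rises and 759 falls, and Tacr2 had an adjusted p of 0.0523 (limma). Without wild-type replicates 1 and 4 there were 424 and 395. Array weights gave 2469 falls. With 1 array left out, rises ranged from 398 to 1506 and falls from 313 to 1755, the lowest of each without Mll1 knockout replicate 3. The causes were not tested.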
